A study of Mus musculus with 13 samples.

Results

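Translocations from an I-SceI break at c-myc into annotated genes were taken from 7 mouse libraries made by high-throughput genome-wide translocation sequencing (HTGTS), a method that reads which sequence (the prey) has joined a fixed break (the bait). A junction was counted here when its prey lay on a chromosome other than 15, which carries c-myc, and when the deposited table gave it a gene name. The labels Smu, Sg1, Se, Sa, Cd83 and Pim1 were left out, so that the frequent switch-region targets of B cells do not set the values. The rule kept 749 of 9577 c-myc junctions, which is 7.82%, with 429 in B cells and 320 in fibroblasts. They carried 680 gene names. A further 731 junctions off chromosome 15 had no gene name and served as the comparison.

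The 3 B-cell libraries (14, 36 and 37) were activated splenic B cells of genotype c-myc25-2xI, cultured with anti-CD40 and IL-4. The 4 fibroblast libraries (1 to 4) were SV40-transformed tail fibroblasts of genotype c-myc25xI;RosaI-SceI-GR, without activation. Both groups carry I-SceI sites at c-myc, and the name of the fibroblast genotype adds an I-SceI transgene at Rosa. Each B-cell library came from a sequencing run of its own and the 4 fibroblast libraries shared 1 run, so cell type, genotype, source of I-SceI and run cannot be told apart. Nothing in the labels says that libraries of a group came from separate animals or cultures, and p-values then measure the spread between these libraries alone. For some genes the 6 libraries with the bait in the immunoglobulin heavy chain locus were also read, namely 3 of activated splenic B cells (anti-CD40 and IL-4) and 3 of activated splenic T cells (ConcanavalinA and IL-2), both of genotype IgH2-28xI.

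A break at one locus joins most often to another break, so a map of junctions shows where else DNA was broken and how near to the bait that break lay. I-SceI is a yeast homing endonuclease with a long recognition site, and related sequences in the mouse genome, called cryptic sites, are known from HTGTS work. Activated B cells also express AID, the deaminase that starts class switching at the S regions and that acts less often on other transcribed genes. Fibroblasts are not known to express it.

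The junctions that recurred within a short distance carry much of what could be read about single genes. Junctions of different libraries, of either bait, were grouped where neighbours lay at most 200 bases apart, a window chosen after the positions were seen. This gave 17 clusters with a c-myc junction, 13 of them in genes. The other 4 had no gene name, and 3 of them held IgH-bait junctions. A cluster without a gene name on chromosome 17 joined B-cell library 14 and fibroblast library 3. None of the 13 gene clusters joined B cells and fibroblasts. The prey of the main ones is shown here as the mm9 reference in the direction in which the read left the junction, first base next to the break, up to 40 bases.

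Mmp24, a membrane-type matrix metalloproteinase, held a cluster over 4 libraries, as many as Eefsec further on, and over both baits. It is shown because 3 c-myc junctions and 2 IgH-bait junctions met there from both directions. Capitals in the first 3 lines mark the stretch that these prey share, and capitals in the fourth mark a word that recurs at Apbb1.
Mmp24, c-myc B-cell library 36, chr2:155631436-155631465, - strand: CTTAATTAAGGCCTCTGGAGAGTCAgacga
Mmp24, IgH T-cell library 19, chr2:155631432-155631471, - strand: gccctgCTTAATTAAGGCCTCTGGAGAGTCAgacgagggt
Mmp24, c-myc B-cell library 37, chr2:155631441-155631480, - strand: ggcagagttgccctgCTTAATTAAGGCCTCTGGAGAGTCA
Mmp24, IgH B-cell library 23, chr2:155631484-155631523, + strand: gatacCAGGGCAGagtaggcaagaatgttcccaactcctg
Mmp24, c-myc B-cell library 36, chr2:155631539-155631578, + strand: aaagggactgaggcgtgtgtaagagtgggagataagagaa

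The 3 - strand prey began at 155631465, 155631471 and 155631480 and ran toward lower coordinates. The 2 + strand prey began at 155631484 and 155631539 and ran toward higher ones. The prey of both directions thus faced away from the same short interval, with 74 bases between the outermost starts. In all, Mmp24 held 6 c-myc junctions, 1 in B-cell library 14, 4 in library 36 and 1 in library 37, spread over 7246 bases. It was the gene with the most junctions and the most in a single library. The fibroblast libraries held 0 of 320, an upper limit of 0.938% at 3 counts, against 6 of 429 in B cells. Because the gene stands out by its B-cell junctions, the contrast with fibroblasts is a description and was not tested.

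Apbb1, which encodes the adaptor Fe65 that binds the amyloid precursor protein, had a similar layout with fewer junctions. Capitals mark the word shared with Mmp24.
Apbb1, IgH B-cell library 19, chr7:112727836-112727875, - strand: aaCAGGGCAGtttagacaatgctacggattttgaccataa
Apbb1, c-myc B-cell library 36, chr7:112727881-112727920, + strand: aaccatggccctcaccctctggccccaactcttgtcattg
Apbb1, c-myc B-cell library 37, chr7:112727997-112728036, + strand: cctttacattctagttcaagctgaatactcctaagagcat

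The IgH-bait prey and the c-myc prey of library 36 began 6 bases apart and ran in opposite directions. The prey of library 37 began 116 bases further on. The word CAGGGCAG, of 8 bases, stood within the first 20 bases of the IgH-bait prey at both genes. Searched on both strands in the first 40 prey bases, it was present in 2 of 749 gene junctions (0.267%) and in 3 of 731 without a gene name (0.410%). The word was found by comparing these prey, and its match is a description.

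Fermt2 encodes kindlin-2, which activates integrins. It was named after its values were seen, because c-myc and IgH-bait prey began 5 bases apart on the same strand. Capitals mark the stretch that both share.
Fermt2, c-myc B-cell library 14, chr14:46096839-46096878, + strand: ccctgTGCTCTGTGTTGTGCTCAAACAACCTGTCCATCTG
Fermt2, IgH B-cell library 23, chr14:46096844-46096883, + strand: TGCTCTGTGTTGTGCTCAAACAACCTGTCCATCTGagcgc

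A second Fermt2 junction of B-cell library 14 began at 46096670. In Myo3a, a class III myosin of hair cells, the c-myc junction of B-cell library 36 began at 22444401 of chromosome 2 and an IgH-bait junction of T-cell library 23 at 22444248, 153 bases away. Fibroblast library 3 also hit Myo3a, 383 bases from the B-cell junction. Mmp24, Apbb1, Fermt2 and Myo3a were the 4 gene clusters that both baits shared, and their c-myc junctions all came from B cells. Among clusters without a gene name, fibroblast junctions also met IgH-bait junctions. Fibroblast library 2 met IgH T-cell library 21 on X, and fibroblast library 3 met IgH B-cell library 19 on chromosome 17.

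**Figure D1:**
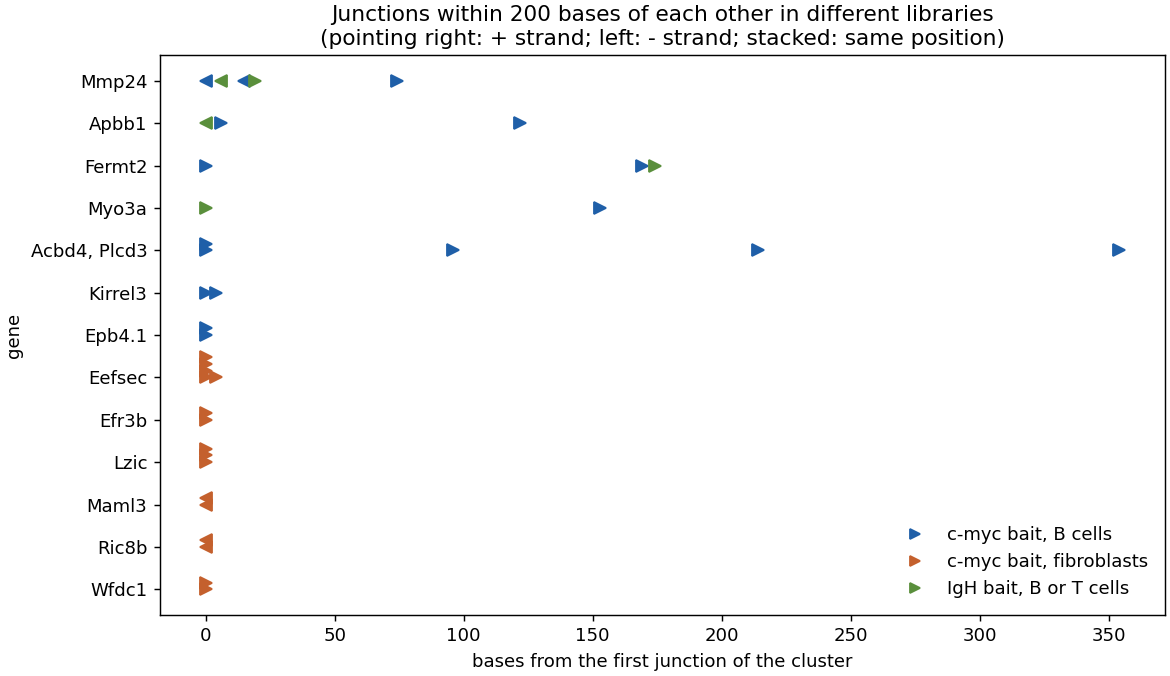
The start of each prey, in bases from the first junction of its cluster, is plotted for the 13 gene clusters, coloured by bait and cell type, with the arrow giving the strand and stacked arrows the same position. Junctions of both baits meet at Mmp24, Apbb1, Fermt2 and Myo3a over 74 to 174 bases, while the 6 fibroblast clusters and those at Epb4.1 and Kirrel3 in B cells span at most 4 bases.

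In each of the 6 fibroblast clusters libraries repeated a position to the base, as they did at Epb4.1 and Plcd3 in B cells. Off chromosome 15, 8 combinations of position and strand were found in 2 or more libraries of a group, 6 in fibroblasts and 2 in B cells, and 0 were found in both groups. All 8 had a gene name, although 731 junctions had none. They made up 15 of the 320 fibroblast junctions and 4 of the 429 B-cell junctions. The prey most often repeated is shown with the bases that also stand just before it on the read in capitals.
Eefsec, fibroblast libraries 1 to 4, chr6:88209573-88209612, + strand: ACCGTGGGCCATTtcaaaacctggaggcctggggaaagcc
Lzic, fibroblast libraries 1, 3 and 4, chr4:148870060-148870099, + strand: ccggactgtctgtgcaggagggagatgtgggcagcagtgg
Efr3b, fibroblast libraries 1 and 2, chr12:3984905-3984944, + strand: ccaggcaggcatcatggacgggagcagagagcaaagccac
Maml3, fibroblast libraries 1 and 2, chr3:51618146-51618185, - strand: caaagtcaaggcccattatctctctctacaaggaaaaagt
Ric8b, fibroblast libraries 1 and 2, chr10:84464994-84465033, - strand: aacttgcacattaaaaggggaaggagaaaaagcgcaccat
Wfdc1, fibroblast libraries 1 and 2, chr8:122193353-122193392, + strand: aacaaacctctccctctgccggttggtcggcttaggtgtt

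Eefsec, the elongation factor that brings selenocysteine to the ribosome, was hit at the same base in all 4 fibroblast libraries, the largest number of libraries for any gene. The aligned prey was 282, 113, 156 and 295 bases long in libraries 1 to 4, so the far end of the alignment differed each time. On the read of library 1 the 13 bases in capitals stood 2 times in a row. The bases just before the prey, which lie within that repeat, were the same in the 4 libraries. What stood further before on the reads was not compared. Library 2 held a second line 4 bases further on with the same far end.

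Lzic was hit at 1 base in libraries 1, 3 and 4 with aligned lengths of 323, 227 and 181. Ric8b, a chaperone of G protein alpha subunits, had lengths of 114 and 99, and the secreted protein gene Wfdc1 had 138 and 144. The far ends thus differed between libraries in these genes as well. Efr3b, a membrane anchor of phosphatidylinositol 4-kinase, had the same length of 149 in both libraries, and Maml3, a Notch coactivator, the same length of 131. For these 2 genes both ends coincided. The bases just before the prey were the same between libraries at Lzic, Ric8b, Efr3b and Maml3, and differed at Wfdc1. The 4 fibroblast libraries shared a sequencing run, and its part in the repeated positions was not tested.

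In B cells the 2 repeated positions lay in Epb4.1, which encodes the membrane skeleton protein 4.1, and Plcd3, a phospholipase C. Epb4.1 was hit at 131604830 of chromosome 4 in libraries 14 and 36, with an aligned length of 45 in both. Plcd3 was hit at 102962731 of chromosome 11 in libraries 36 and 37, with a length of 126 in both. The reads at both genes also held a common stretch of 20 bases that the reference has in Myc. This stretch was present in 20 B-cell reads, 10 of them gene junctions in 8 genes, and in 0 fibroblast reads, and its part in the repeated positions was not tested.

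Plcd3 had 4 junctions in all 3 B-cell libraries within 214 bases, and a junction labelled with its neighbour Acbd4 began at 102963085. The Plcd3 prey of library 14 began 96 bases after the repeated position of libraries 36 and 37 and ended at the same base, 102962856. Between 27 and 74 bases stood between the cassette and the prey in 3 of the 4 Plcd3 reads, against 0 to 10 at the 3 Mmp24 junctions of the cluster. Kirrel3, an adhesion protein of the immunoglobulin superfamily, was hit in libraries 14 and 37 at starts 4 bases apart with the same far end.

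Over whole genes, 50 of the 680 gene names had junctions in 2 or more of the 7 libraries. Of these, 26 were hit in both cell types, 12 in B-cell libraries alone and 12 in fibroblast libraries alone. Without fibroblast library 2 the 50 became 31, with 3 in fibroblasts alone and 16 in both, and without fibroblast library 1 those of fibroblasts alone became 6. Without B-cell library 14 the names in both became 16, and without B-cell library 14, 36 or 37 those of B cells alone became 5, 5 or 6. Most names were hit once, with 610 having a single junction. B cells hit 404 names and fibroblasts 302, and the 26 in common are 6.44% of the former and 8.61% of the latter. The names Bc1 and Tshr were written on the same lines and count as 2 genes here, as did the names of all 17 junctions with a double label.

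The genes hit in both cell types were mostly hit far apart within the gene. Bai3, an adhesion G protein-coupled receptor of the brain, had 1 junction in B-cell library 37 and 1 each in fibroblast libraries 1 and 3, spread over 475684 bases. Odz2, which encodes teneurin-2, had 1 in B-cell library 14 and 1 each in fibroblast libraries 1 and 4 over 37751 bases. Lrp1b, a large lipoprotein receptor gene, was hit in B-cell library 14 and fibroblast library 4 at places 933035 bases apart. Pde4d, a cyclic AMP phosphodiesterase, had its 2 junctions 544468 bases apart and Dcc, the netrin receptor, 330772 bases apart. Within 10 kb of each other, B cells and fibroblasts met in 5 genes, namely Myo3a (383 bases), Ahnak (1576), Mrvi1 (3091), Grin3b (5012) and Anp32b (7228).

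Genes known to be very long were hit in both groups. A list of 99 such genes, written from general knowledge with earlier results of these data known, had 27 members with junctions, 18 junctions in B cells and 16 in fibroblasts. As a share of a library's gene junctions this was 4.89% ± 2.10 (SD, n = 3) for B-cell libraries and 5.34% ± 3.23 (SD, n = 4) for fibroblast libraries, a gap smaller than the spread within either group. The list held 6 of the 50 recurrent names (12%) and 21 of the 630 names of 1 library (3.33%). The recurrent ones were Lrp1b, Dcc, Odz2, Sgcz, Nkain2 and Nrg3. Gene lengths of the mm9 build were not used here, so length itself was not measured.

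Among genes hit in B-cell libraries alone, Aff3, a nuclear protein of the AF4 family, had 2 junctions in library 14 and 1 in library 37 over 221144 bases. Fyn, a Src family kinase, was hit in libraries 14 and 36, and Pik3cd, the catalytic subunit of the leukocyte PI3 kinase delta, in libraries 14 and 37. Among genes hit in fibroblast libraries alone, the neuregulin gene Nrg3 was hit in libraries 2 and 3 and the potassium channel gene Kcnb2 in libraries 2 and 4. In those pairs the junctions lay between 20739 and 221144 bases apart. The 12 names of fibroblasts alone became 7 with positions shared to the base counted once, while the 12 of B cells alone stayed 12. Eefsec and Kirrel3 still counted among these, through starts 4 bases apart.

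**Figure D2:**
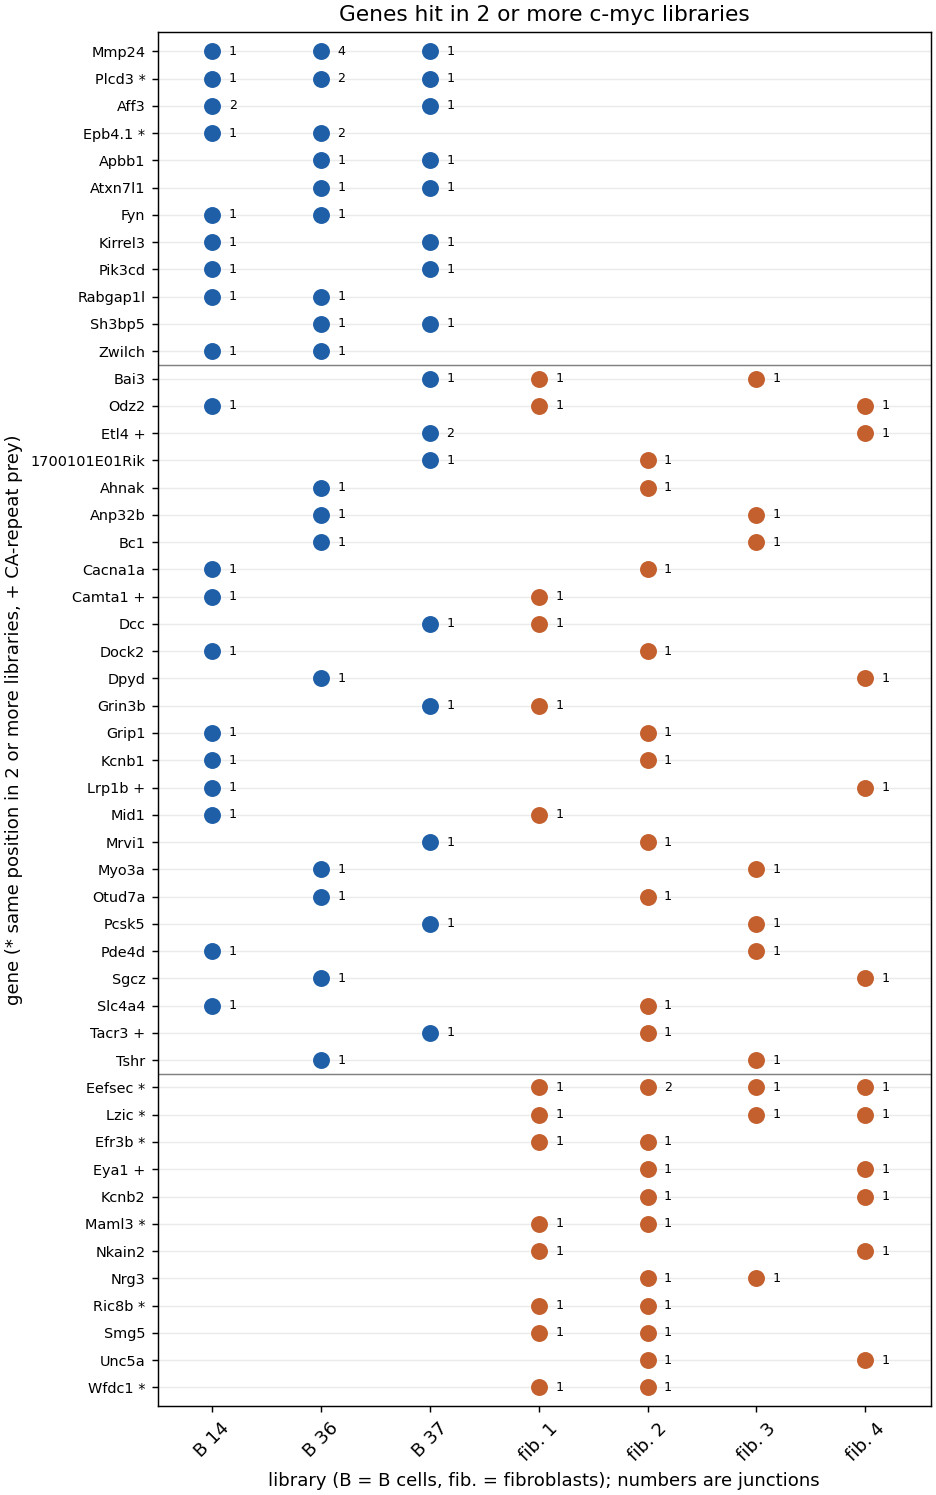
Each row is 1 of the 50 genes with junctions in 2 or more libraries and each column a library, with the number of junctions beside each point; an asterisk marks a position shared to the base and a plus sign prey that begins in a CA repeat. The upper block holds the 12 genes of B cells, the middle block the 26 of both and the lower block the 12 of fibroblasts, where 6 rows carry an asterisk.

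Listed genes of B-cell identity took few junctions, most of them in B cells. A list of 63 genes of B-cell identity and signalling had junctions in 7 genes, with 9 junctions in B cells and 1 in fibroblasts. Per library this was 2, 6 and 1 in B-cell libraries 14, 36 and 37, and 0, 1, 0 and 0 in fibroblast libraries 1 to 4. The list's share of gene junctions was 1.87% ± 0.775 (SD, n = 3) for B-cell libraries against 0.305% ± 0.610 (SD, n = 4) for fibroblast libraries. A list of 37 known AID off-targets, 20 of them in both lists, gave 8 and 1. The counts are small, the lists were written with earlier results known, and no test was made. The lists do not hold every such gene, so the counts hold for the listed genes and say nothing of this class of genes.

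Il4ra, the receptor chain for the IL-4 present in the culture, had 3 junctions, all in B-cell library 36. Irf4, a transcription factor induced in activated B cells, had 2, both in library 14. The prey are shown with the 4-base AID motif AGCT in capitals where a script found it on these strands.
Il4ra, library 36, chr7:132696242-132696281, - strand: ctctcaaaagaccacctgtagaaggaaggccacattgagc
Il4ra, library 36, chr7:132697415-132697454, - strand: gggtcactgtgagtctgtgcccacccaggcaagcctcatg
Il4ra, library 36, chr7:132701015-132701054, + strand: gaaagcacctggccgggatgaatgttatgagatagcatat
Irf4, library 14, chr13:30844800-30844829, - strand: acagtgacaccacactggaactgaaacatc
Irf4, library 14, chr13:30849578-30849617, - strand: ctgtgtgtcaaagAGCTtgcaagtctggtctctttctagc

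The Il4ra junctions began at 132696281, 132697454 and 132701015, which are separate places in the gene. Single junctions in B cells fell in Gpr183, a chemotactic receptor of B cells, in the survival gene Bcl2 and in the inhibitory receptor gene Siglecg (library 36), and in Dock10 and the adaptor gene Grap (library 37). The fibroblast junction of these lists lay in Ikzf1, which encodes Ikaros (library 2). AGCT, which reads the same on both strands, was present in the first 40 prey bases of 65.6 to 70.9% of the left-out switch-region and other named prey of a B-cell library. In gene junctions it was present in 16.7 to 24.1% in B cells and 6.94 to 17.7% in fibroblasts, and without a gene name in 7.50 to 27.1% and 10.8 to 24.5%. In B cells, gene junctions thus lay within the range of junctions without a gene name and below that of the left-out labels.

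The kappa light chain locus on chromosome 6 appeared with 3 labels, all in B cells, J segments in 2 junctions (Jk2 and Jk3, library 36) and the edge of the constant exon once (library 14). Of the 320 fibroblast junctions none carried such a label, an upper limit of 0.938% at 3 counts. The B-cell count was 3 of 429.

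A list of 61 matrix and fibroblast genes, also written with earlier results known, had 6 junctions in 5 genes in fibroblasts, 2, 2, 1 and 1 in libraries 1 to 4, and 0 of 429 in B cells, an upper limit of 0.699% at 3 counts. The collagen genes Col4a1 (library 2) and Col5a1 (library 3), the mesenchymal transcription factor gene Prrx1 (library 2) and the actin gene Actb (library 4) had 1 each. Bmp1, the procollagen C-proteinase, had 2 lines in library 1 with starts 4 bases apart and the same far end. Off chromosome 15 there were 12 such sets of lines within 1 library, 5 of them with a gene name. The list does not hold every such gene. Matrix and fibroblast genes outside it, picked after their values were seen, were hit in B cells, namely Mmp24 (6 junctions) and Fap, Adamts2, Col25a1 and Mfap5 (1 each), so the 0 in B cells holds for the listed genes and says nothing of this class of genes. A list of 30 T-cell genes had 1 junction, in Themis in B-cell library 36.

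The share of junctions that carried a gene name overlapped between the cell types once the 6 labels were left out. Among junctions off chromosome 15 without the 6 labels it was 52.8, 49.9 and 61.6% in B-cell libraries 14, 36 and 37, and 46.4, 46.1, 43.4 and 59.5% in fibroblast libraries 1 to 4. The means were 54.8% ± 6.11 (SD, n = 3) and 48.9% ± 7.25 (SD, n = 4), and the libraries overlapped (two-sided exact permutation p = 0.343, adjusted p = 0.343 over 4 tests). The difference of 5.89 points was 2.46 without B-cell library 37 and 9.45 without fibroblast library 4, and with the 6 labels counted as gene names it was 16.8 points, at the smallest exact permutation p of 0.0571. About 1 in 2 of these junctions had a gene name in either cell type, with library 37 of B cells and library 4 of fibroblasts highest.

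As a share of all junctions of a library, gene junctions took 4.90, 7.61 and 7.86% in B cells and 10.6, 10.7, 9.03 and 13.9% in fibroblasts. The libraries did not overlap, with means of 6.79% ± 1.64 (SD, n = 3) and 11.05% ± 2.03 (SD, n = 4), and the exact permutation p was 0.0571, the smallest that 3 against 4 libraries allow (adjusted p = 0.114). This share depends on what else a library holds. The left-out labels took 50, 140 and 59 junctions in B cells and 0 in each fibroblast library, and with them counted as genes the difference of -4.26 points became 0.193.

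**Figure D3:**
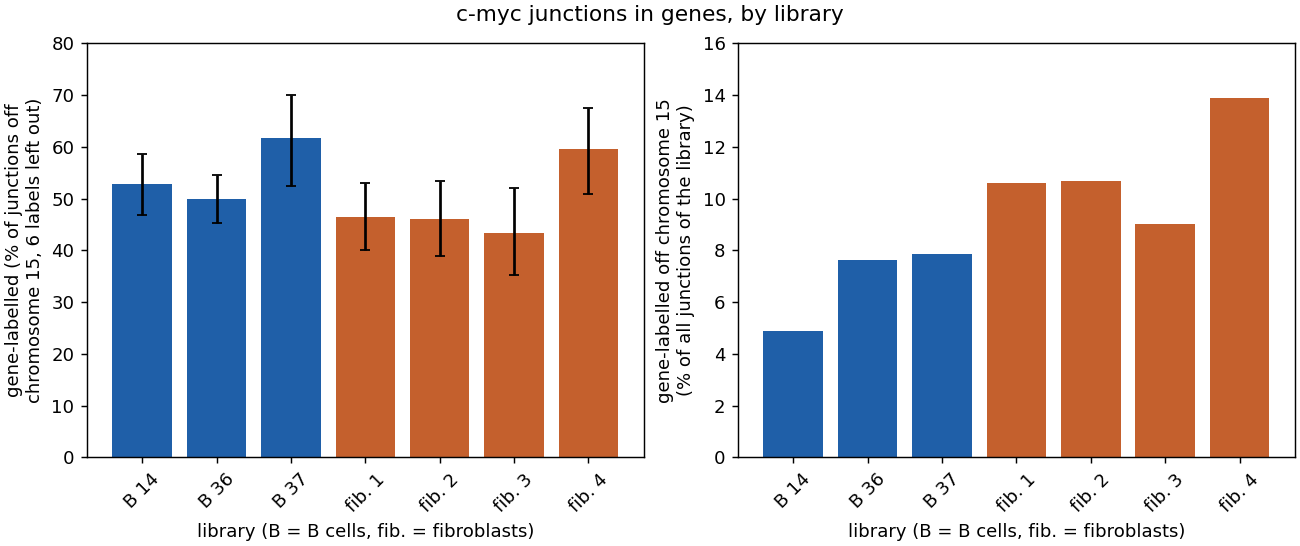
Bars give, for each library, gene junctions as percent of junctions off chromosome 15 without the 6 labels (left, with 95% Wilson intervals, which cover counting error alone) and as percent of all junctions of the library (right). On the left B cells (49.9 to 61.6%) and fibroblasts (43.4 to 59.5%) overlap, and on the right every fibroblast library is above 9% and every B-cell library below 8%.

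The strand of gene junctions was compared between the cell types. A + strand junction is one whose prey reads toward higher coordinates. Gene junctions were on the + strand in 55.9, 55.3 and 58.0% in B-cell libraries 14, 36 and 37 and in 53.8, 45.1, 46.4 and 52.6% in fibroblast libraries 1 to 4. The libraries did not overlap, by 6.91 points between the means of 56.4% ± 1.39 (SD, n = 3) and 49.5% ± 4.35 (SD, n = 4), with the smallest exact permutation p of 0.0571 (adjusted p = 0.114). The exact permutation p was 0.114, so that the separation was lost, with prey of at least 50 bases (8.91 points) and with X and Y left out (7.06 points).

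Compared with junctions without a gene name in the same library, gene junctions were more often on the + strand by 7.51, 10.3 and 9.13 points in the 3 B-cell libraries. They were less often so by -1.15, -2.79, -1.52 and -11.6 points in the 4 fibroblast libraries. Over the 7 libraries there was no common direction (mean 1.42 points, exact sign-flip permutation p = 0.641, adjusted p = 0.969 over 5 tests). The difference between the groups was 13.3 points, at the smallest exact permutation p of 0.0571. The 95% Wilson intervals of the 2 classes overlapped within each library, and the difference was not tested within single libraries. The p of the difference between groups is unadjusted, and the comparison was picked after its pattern was seen.

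**Figure D4:**
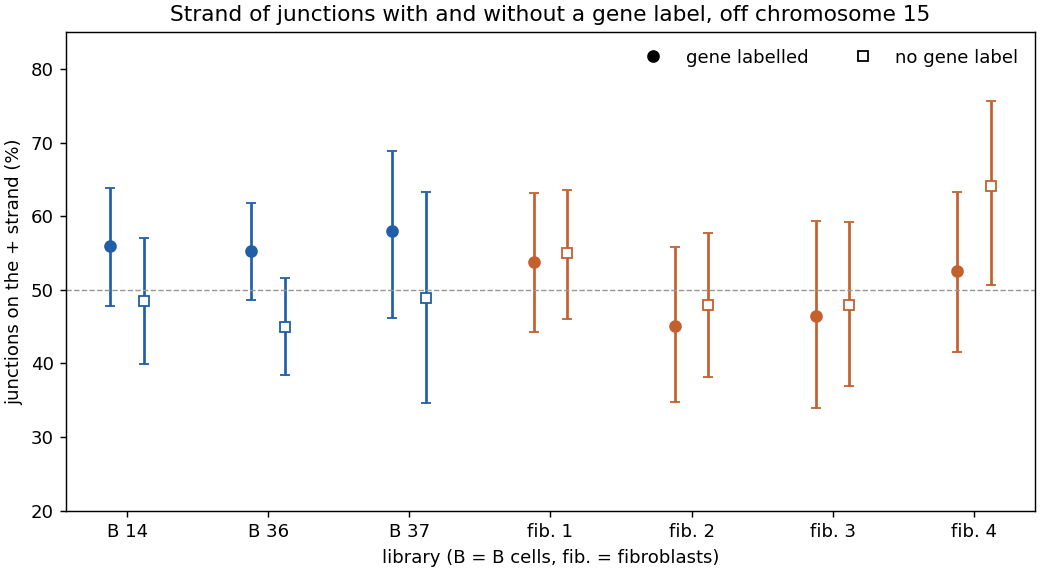
Points give the percent of junctions on the + strand with a gene name (filled) and without (open) in each library, with 95% Wilson intervals. In B cells the filled points lie above the open ones in all 3 libraries and in fibroblasts below them in all 4, with overlapping intervals in every library.

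Gene junctions were found on 19 chromosomes and none on Y. Chromosome 2 held the most with 74, then chromosome 11 with 71, and X had 15. On chromosome 2 the B-cell libraries had 17, 25 and 12 and the fibroblast libraries 8, 4, 3 and 5, which is 13.6% ± 3.29 (SD, n = 3) and 6.08% ± 1.25 (SD, n = 4) of a library's gene junctions. On chromosome 16 they had 5, 8 and 5 against 3, 1, 1 and 1, which is 4.81% ± 2.11 (SD, n = 3) and 1.79% ± 0.771 (SD, n = 4). These 2 of 19 chromosomes, 10.5%, had shares that did not overlap between the groups.

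A limma fit over the log2 shares of the 19 chromosomes called 0 of them at adjusted p under 0.05, which is 0%, and 3 had an unadjusted p under 0.05. For chromosome 2 the log2 difference, B cells minus fibroblasts, was 1.05 with a standard error of 0.378 (limma adjusted p = 0.155). Chromosome 16 gave 1.06 with a standard error of 0.421 (limma adjusted p = 0.155). X gave -1.80 with a standard error of 0.693 (limma adjusted p = 0.155), from 3, 0 and 1 junctions in B cells and 3, 5, 1 and 2 in fibroblasts, and without B-cell library 14 it was -2.39 (limma adjusted p = 0.0420). Mmp24 supplied 6 of the 54 B-cell junctions on chromosome 2.

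**Figure D5:**
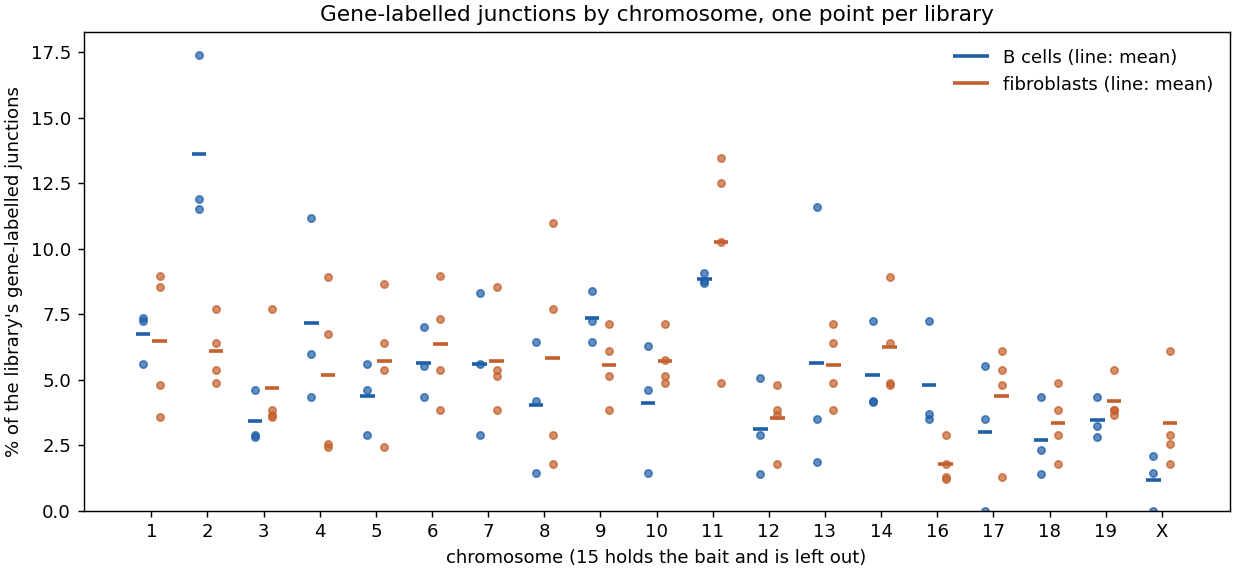
The percent of a library's gene junctions on each chromosome is plotted with 1 point per library and a line at the group mean. On chromosomes 2 and 16 the B-cell points all lie above the fibroblast points, and elsewhere the groups overlap.

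The first 40 prey bases of gene junctions were richer in G and C than those without a gene name in 7 of 7 libraries. Prey shorter than 40 bases were left out here and for AGCT, which kept 112 of 143 gene junctions in B-cell library 14 and 203 of 217 in library 36. In B cells the mean was 47.0% ± 0.672 (SD, n = 3) against 43.3% ± 2.89. In fibroblasts it was 45.8% ± 1.24 (SD, n = 4) against 42.3% ± 1.97. The difference of 3.55 points had the smallest exact sign-flip permutation p of 0.0156, and adjusted p = 0.0781 over the 5 tests of this kind. With the other tests as they were, no GC difference could have reached an adjusted p under 0.05, so the adjusted value does not decide. The measure was added after the data were seen.

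No difference by gene name was detected in other features of the join. Reads in which no bait end was found count as having inserted bases here. Inserted bases stood between bait and prey in 24.4% ± 4.60 (SD, n = 3) of gene junctions in B cells and 24.6% ± 3.41 of the others, and in 16.2% ± 4.09 (SD, n = 4) and 16.5% ± 4.28 in fibroblasts (exact sign-flip permutation p = 0.875, adjusted p = 0.969). Overlap of bait and prey, called microhomology, was tested in the fibroblast tables alone, because the B-cell tables place the prey start exactly at the end of the bait in 59.7% of gene junctions, so that overlap there depends on how the start was placed. It was present in 61.8% ± 6.12 (SD, n = 4) of gene junctions and 60.2% ± 4.88 of the others (exact sign-flip permutation p = 0.75, adjusted p = 0.969, smallest possible 0.125). Median aligned prey length differed by 0.429 bases on average with an SD of 8.86 between libraries (exact sign-flip permutation p = 0.969, adjusted p = 0.969).

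Some gene junctions began in a CA repeat. These prey are shown because a repeat that occurs in many places may leave their place in the genome uncertain. Their aligned lengths were 53 to 270 bases, and whether each prey matched a single place was not tested. Capitals mark the repeat.
Lrp1b, fibroblast library 4, chr2:41468710-41468749, + strand: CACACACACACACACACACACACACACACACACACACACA
Eya1, fibroblast library 2, chr1:14274004-14274043, + strand: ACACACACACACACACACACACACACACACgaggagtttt
Eya1, fibroblast library 4, chr1:14295242-14295281, - strand: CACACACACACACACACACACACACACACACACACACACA

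They numbered 29 of 749 gene junctions (3.87%), in 28 genes, and 37 of 731 junctions without a gene name (5.06%). Per library the gene junctions of this kind were 0, 9 and 6 in B cells and 3, 5, 2 and 4 in fibroblasts. Of the 66, 59 had the same bases just before the repeat on the read. Both Eya1 junctions, which make this eye development gene recurrent, were of this kind, and so was 1 junction each of Lrp1b, Etl4, Tacr3 and Camta1.

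Prey were also matched to known starts of transcription. The first 24 prey bases matched a RefSeq promoter (250 bases before to 50 after the start, GRCm38.p6) of the same chromosome in 4 of 749 gene junctions and 9 of 731 without a gene name. Most of that window lies before the start, where a junction need not carry the name of the gene. The share expected without any preference was not worked out, so the counts are a description. The examples show the matched word in capitals, with mm9 coordinates.
Ndrg3, B-cell library 36, chr2:156817474-156817513, - strand: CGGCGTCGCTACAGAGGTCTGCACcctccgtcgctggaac
Rbks, fibroblast library 4, chr5:31999988-32000027, - strand: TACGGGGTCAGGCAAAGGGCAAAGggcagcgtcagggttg

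The prey in Ndrg3 began 74 bases before the start of that gene and the prey in Rbks, the ribokinase gene, 44 bases before. A junction labelled Plcd3 and Acbd4 began 27 bases after the Plcd3 start. The fourth, labelled Nthl1, lay in the promoter of its neighbour Tsc2.

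The IgH bait hit 139 genes off chromosomes 12 and 15 with 148 junctions. Of these genes, 19 were also hit from c-myc, which is 2.79% of the c-myc names and 13.7% of the IgH names. No position was the same. The 20 IgH-bait junctions in those genes included 5 within 200 bases of a c-myc junction, those in Mmp24, Apbb1, Fermt2 and Myo3a, while the other 15 lay 3666 to 960991 bases away.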

How the data were processed

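Junction tables of 7 c-myc and 6 IgH libraries were used as deposited, 1 line per read with prey position, strand, sequence and gene label, as the file headers name them. The authors deposited a score per line as well, which was not used in any test. The build is mm9 per the submitters' processing notes, and the aligner, its version and its filters were not given in the sources used here. Deposited starts count from 0, as the lengths show, and are printed counted from 1. Columns of no sample numbered 0. Members and gene lists were chosen with earlier results of these data known. Named genes were those in 2 or more libraries (up to 30), with 3 or more junctions in 1 library, in a list (up to 10 a list), or with the closest pairs; others are said to be chosen later. Of 680 names, 607 equal a RefSeq symbol, 62 a synonym and 11 neither, and 3 read as dates.

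The libraries held 562 to 2918 junctions. Their number limits precision, and Wilson intervals and limits from 3 counts cover counting error only. Groups were compared with two-sided exact permutation tests and classes within libraries with exact sign-flip tests, with Benjamini-Hochberg adjustment. Chromosome shares were tested with limma 3.58.1 in R 4.3.3 on the log2 of 100 × (count + 0.5) / (total + 1), with at least 10 junctions, a step tested on simulated data. The bait end on a read is the last word of 11 bases found in at least 1% of a library's reads before the prey. Where that word ended at the prey start, the bait end was moved on while such words continued, by at most 30 bases. Reads without such a word were not removed and count as having inserted bases. A CA repeat means 8 or more CA or AC in the first 20 prey bases of the read. The alternatives were repeated or CA-repeat lines left out or counted once, prey of at least 50 bases, X and Y or chromosomes 6 and 12 left out, the 6 labels counted as genes, an added count of 1, no minimum per chromosome, and single libraries left out.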

Additional observations from a re-analysis of the deposited data

Results flagged for a closer look

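The strand of gene junctions relative to junctions without a gene name went one way in every B-cell library and the other way in every fibroblast library. Members minus the rest was 9.0 points ± 1.42 (SD, n = 3) in B cells and -4.26 points ± 4.93 (SD, n = 4) in fibroblasts, 13.3 points apart. The exact permutation p of this difference was 0.0571, the smallest possible. It is unadjusted, and the difference was picked by its pattern from the measures compared within libraries. The groups also differ in genotype and run, which cannot be told apart from cell type.

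Fibroblast library 3 had a shorter median aligned prey of gene junctions, 105 bases, than the other 3 fibroblast libraries, which had 124.5, 126.5 and 127. Its gap to the nearest was 0.886 of the whole range, above Dixon's 95% bound for 4 samples. Chance alone passes this bound in about 1 in 20 groups, and 9 measures were searched, of which this was the one that passed. The B-cell group, with 3 libraries, was not searched. Its medians lay wider apart, at 53, 116 and 98 bases in libraries 14, 36 and 37.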

How the results depend on the processing

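No paired analysis was possible because the groups compared share no replicate number. The + strand share, the share off chromosome 15, the number of genes per junction and the GC difference kept their direction under every alternative, but not always their size. The difference in the share off chromosome 15 went from 5.89 to 16.8 points (p from 0.343 to 0.0571) with the 6 labels counted and was 2.46 to 9.45 without single libraries. The + strand difference between groups no longer reached the smallest p with prey of at least 50 bases or without X and Y (p = 0.114 in each exact permutation test). The difference in the share of a library became 0.193 points with the 6 left-out labels counted as genes. Differences near 0 within libraries changed sign, and the cause was not tested. For prey length the mean difference was -0.643 bases without shared positions, -0.214 with prey of at least 50 bases, -1.21 without X and Y, -2.71 without chromosomes 6 and 12, and -0.143 without CA repeats. It was -1.71 with shared, near-identical and CA-repeat lines left out together, and -0.917 to 3.58 without single libraries. For the + strand difference over all 7 libraries it was -0.906 with prey of at least 50 bases, -0.771 with the 3 kinds of line left out together and -0.0686 to 3.59 without single libraries. The insertion difference was 1.23 without X and Y, 0.0405 without CA repeats and -1.66 to 0.993 without single libraries, and the microhomology difference -1.87 to 5.05. Recurrent genes numbered 31 (without fibroblast library 2) to 43 without single libraries, those of B cells alone 5 to 12, of fibroblasts alone 3 to 13 and of both 16 to 22, partly because fewer libraries were compared. Recurrent genes of fibroblasts alone fell to 7 with shared positions counted once, and those of B cells alone stayed 12. With the 3 kinds of line left out they were 5 and 11, a choice made after seeing the data. The chromosome test called 0 to 1 without single libraries, X without B-cell library 14. Counts of 0 to 4 per library limit what can be said of any gene.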
